A study of Mus musculus with 30 samples.

Results

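Fatty acid oxidation in the liver was examined through 35 genes out of the 57180 in the count table. They were chosen by function: the receptor PPARA and its partner regulator CREB3L3, the enzymes of mitochondrial and peroxisomal β-oxidation, the ketone body enzyme BDH1, the Cyp4a ω-hydroxylases, and further targets of PPARA. The list was drawn up with earlier results of these data known, and it uses no measured value. RNA sequencing of mouse liver was available for 30 libraries, in 6 groups of 5, from 2 studies of UB-NPs. The labels give UB-NPs no full name, and they were given by oral gavage every day at 60 mg/kg/day.

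In the treatment study, mice became obese on a high-fat diet over 10 weeks and were then treated for 8 weeks. The Uro group received UB-NPs while the high-fat diet went on. The HFD group stayed on the same diet and received water. The NFD group received standard diet and water, with 18 weeks on its label. In the prevention study, the diets and the daily gavage ran together for 10 weeks in mice labelled normal. The UB group received high-fat diet and UB-NPs, the MC group high-fat diet and water, and the NC group standard diet and water. The labels give no strain, sex or age. The design names 10 mice per group, and nothing ties the 5 libraries of a group to single animals, so p-values measure the spread between these libraries, which may in part be technical.

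Fatty acids taken up by a hepatocyte are activated to acyl-CoA, carried into mitochondria as carnitine esters and shortened there by repeated rounds of dehydrogenation, hydration, a second dehydrogenation and thiolysis. Peroxisomes carry out the same chemistry on very long and branched chains, and cytochromes of the Cyp4a family oxidise the far end of the chain. Acetyl-CoA made in excess leaves the liver as ketone bodies. PPARA is a nuclear receptor that binds fatty acids, pairs with a retinoid X receptor and drives most of these genes in the fasting liver. It is also the target of fibrate drugs.

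Total counts were 17.002 to 24.3 M per library, but the part of them from nuclear genes differed. Mitochondrial transcripts took 14.1% to 21.6% of counts in Uro, 59.1% to 82.3% in HFD and 56.2% to 81.05% in NFD libraries. They took 41.8% to 51.98% in UB, 38.6% to 69.1% in MC and 61.5% to 73.4% in NC libraries. The Uro and HFD ranges do not meet, so for every comparison of Uro below, UB-NP treatment and the mitochondrial share cannot be told apart. The UB and NC ranges do not meet either, so for UB against NC the groups and the share cannot be told apart. All 35 genes passed the filter on low counts in each fit. Levels are given as CPM, counts per M counts of the library after scaling by the trimmed mean of M-values (TMM), and as mean ± SD with n = 5. Beside each log2 fold change stands an approximate SE. Every adjusted p is from edgeR's quasi-likelihood test with Benjamini-Hochberg adjustment over all genes of the fit, and genes with an adjusted p below 0.05 were called. Over the 30 libraries the Y-chromosome gene Ddx3y was at 18.8 to 74.4 CPM. Xist, made from the inactive X chromosome, was at 0.892 CPM at most, so the libraries read as male.

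The 35 genes covered a wide range of levels. Per kilobase of transcript, Acaa1b stood highest in Uro, HFD, UB and MC livers, with mean levels of 932, 297, 889 and 791 CPM per kb. Pdk4 was lowest in all groups but MC, at 1.03 to 2.88 CPM per kb in those 5 groups, and Ppara was also among the 4 lowest in each group. The libraries of a group tended to be high or low for many of the genes at once. HFD replicate 2 held the highest HFD level of 25 of the 35 genes. MC replicate 5 held the lowest MC level of 28 genes, NC replicate 1 the highest NC level of 22, and NC replicate 5 the lowest NC level of 25.

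UB-NPs given to obese mice were compared with water on the same diet, which asks how treatment acts on established obesity. In Uro livers 29 of the 35 genes rose and 0 fell, and the other 6 did not pass the test. Of all 14163 genes tested, 15.3% were called higher and 11.7% lower. The median log2 fold change was 1.26 over the 35 genes and -0.08 over all genes tested. The rise took in every enzyme of the mitochondrial spiral listed except Acadm, all 8 genes of peroxisomal or of both peroxisomal and mitochondrial enzymes, the ketone body enzyme and 4 of the 5 ω-oxidation genes. All 5 Uro libraries lay above all 5 HFD libraries for 24 of the 35 genes, against 13.8% of all genes tested.

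Among the mitochondrial enzymes, Acaa2, the thiolase that releases acetyl-CoA from medium-length chains, had the smallest adjusted p. Acaa2 was at 464, 595, 593, 446 and 450.2 CPM in Uro, 103, 122, 94.5, 96.2 and 58.02 CPM in HFD and 224, 272, 284, 145 and 319 CPM in NFD libraries. Every Uro library was above every library of the other groups of the study (log2 fold change 2.45 ± 0.24, adjusted p = 1.19e-06 for Uro against HFD). Acadvl encodes the dehydrogenase that opens the spiral for very long chains. Its counts were fractional in 29 of the 30 libraries, so part of its value is uncertain. Acadvl was at 244, 295, 307, 218 and 239 CPM in Uro, 53.8, 118, 78.04, 87.5 and 65.3 CPM in HFD and 163, 191, 180.4, 142 and 116 CPM in NFD libraries. Its highest HFD value, in replicate 2, was just above the lowest NFD value, and no Uro value came near either (log2 fold change 1.72 ± 0.22, adjusted p = 9.34e-06 for Uro against HFD).

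The other acyl-CoA dehydrogenases did not move alike. Acads, for short chains, was at 45.7, 92.8, 90.1, 59.1 and 56.3 CPM in Uro against 30.2, 24.9, 37.1, 23.4 and 10.6 CPM in HFD libraries, which do not overlap (log2 fold change 1.47 ± 0.30, adjusted p = 0.00109). Acadl, for long chains, averaged 153 ± 14.1 CPM in Uro and 86.6 ± 21.4 CPM in HFD livers (log2 fold change 0.84 ± 0.20, adjusted p = 0.00291). Acadm, for medium chains, was at 181, 150.4, 131, 169 and 197 CPM in Uro, 131, 179.8, 175, 155 and 128 CPM in HFD and 115, 149.9, 185, 162 and 134 CPM in NFD libraries. The 3 groups of the study overlapped for Acadm (log2 fold change 0.13 ± 0.19, adjusted p = 0.648), and it passed the test in none of the 6 comparisons between groups.

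Hadha and Hadhb encode the α and β subunits of the mitochondrial trifunctional protein, which carries out the last steps of the spiral on long chains. Their starts face away from each other on chromosome 5. The 272 bases between the starts annotated by RefSeq, at chr5:30154981-30155252 of GRCm38.p6 on the plus strand, are shown because both genes were called together and, by these RefSeq starts, the stretch lies upstream of each; Hadha is read to the left of it and Hadhb to the right. Its GC content is 60.3%.
Between the RefSeq starts of Hadha and Hadhb: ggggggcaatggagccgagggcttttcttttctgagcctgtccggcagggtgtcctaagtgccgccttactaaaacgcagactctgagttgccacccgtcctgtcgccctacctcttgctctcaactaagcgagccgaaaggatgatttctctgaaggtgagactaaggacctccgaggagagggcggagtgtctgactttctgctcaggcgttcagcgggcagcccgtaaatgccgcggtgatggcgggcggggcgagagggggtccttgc

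Hadha was at 107, 158, 164, 128 and 103 CPM in Uro, 50.8, 54.2, 50.4, 74.4 and 41.8 CPM in HFD and 84.9, 88.7, 84.7, 75.6 and 102 CPM in NFD libraries. Hadhb was at 62.4, 81.3, 68.1, 70.8 and 61.8 CPM in Uro, 29.1, 38.5, 30.9, 31.05 and 18.98 CPM in HFD and 50.1, 62.997, 62.1, 57.9 and 61.5 CPM in NFD libraries. For both, all Uro values were above all HFD values (Hadha log2 fold change 1.31 ± 0.19, adjusted p = 4.23e-05; Hadhb log2 fold change 1.24 ± 0.18, adjusted p = 3.94e-05). In GENCODE M39 (GRCm39) Hadha spans chr5:30323302-30360187 on the minus strand and Hadhb chr5:30359204-30389997 on the plus strand, so by that annotation their extents overlap by 984 bases and no stretch lies upstream of both. How reads in such an overlap were counted is not given in the sources used here, so part of either value is uncertain. Hadh, the dehydrogenase for shorter chains, averaged 125 ± 9.76 CPM in Uro and 83.8 ± 15.95 CPM in HFD livers (log2 fold change 0.60 ± 0.21, adjusted p = 0.0349).

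The enzymes that prepare unsaturated chains rose together. Eci1, an isomerase that shifts the double bond, averaged 109 ± 12.3 CPM in Uro and 45.6 ± 11.9 CPM in HFD livers (log2 fold change 1.28 ± 0.20, adjusted p = 6.12e-05). Decr1, a reductase for chains with more than 1 double bond, averaged 109.9 ± 9.41 CPM in Uro and 45.8 ± 11.8 CPM in HFD livers (log2 fold change 1.29 ± 0.20, adjusted p = 6.52e-05). The electron transfer genes, which pass electrons from the dehydrogenases to the respiratory chain, did not rise evenly. Etfb rose (log2 fold change 1.32 ± 0.24, adjusted p = 0.00031), while its partner subunit Etfa had 234, 132, 121, 174 and 211 CPM in Uro and 118, 179.9, 159, 144 and 132 CPM in HFD libraries, with overlapping groups (log2 fold change 0.28 ± 0.23, adjusted p = 0.4). Etfdh, the membrane enzyme that accepts the electrons, averaged 51.5 ± 9.97 CPM in Uro, 32.4 ± 8.99 CPM in HFD and 89.4 ± 24.4 CPM in NFD livers. Its Uro level was above HFD (log2 fold change 0.70 ± 0.22, adjusted p = 0.0222) and below NFD (log2 fold change -0.73 ± 0.22, adjusted p = 0.0162).

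The entry of fatty acids into mitochondria split as well. Crat, which moves short acyl groups onto carnitine, was at 69.8, 89.3, 88.8, 66.6 and 53.9 CPM in Uro against 22.7, 31.998, 29.6, 36.8 and 23.3 CPM in HFD libraries (log2 fold change 1.37 ± 0.22, adjusted p = 0.000103). Cpt2, the inner carnitine palmitoyltransferase, averaged 114 ± 7.16 CPM in Uro and 61.1 ± 23.1 CPM in HFD livers (log2 fold change 0.92 ± 0.22, adjusted p = 0.00328). Cpt1a, the outer transferase and the rate-setting step of entry, was at 133, 104, 106, 153 and 171 CPM in Uro, 76.7, 111, 102, 94.3 and 75.4 CPM in HFD and 55.2, 70.9, 76.8, 77.4 and 60.6 CPM in NFD libraries. The Uro and HFD values of Cpt1a overlap (log2 fold change 0.56 ± 0.19, adjusted p = 0.0341). Acsl1, the main acyl-CoA synthetase of liver, was the 1 gene of the 35 with a negative log2 fold change in Uro against HFD. It was at 544, 304, 199, 356 and 418 CPM in Uro, 431, 659, 641, 502 and 356 CPM in HFD and 430.5, 718, 575, 1078 and 561 CPM in NFD libraries, and the difference of Uro from HFD did not pass the test (log2 fold change -0.48 ± 0.28, adjusted p = 0.223).

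The 8 genes of enzymes that are peroxisomal, or found in both peroxisomes and mitochondria, all rose, with log2 fold changes of 0.82 to 2.08. Ehhadh, the bifunctional hydratase and dehydrogenase of peroxisomes, was at 359.7, 666, 323, 315 and 319 CPM in Uro, 63.3, 169, 107, 102 and 37.1 CPM in HFD and 94.995, 277, 152, 166 and 187 CPM in NFD libraries. Uro replicate 2 was the highest by far, and all Uro values were above all others of the study (log2 fold change 2.08 ± 0.35, adjusted p = 0.000167 for Uro against HFD). Ech1, a dienoyl-CoA isomerase, was at 317, 392.4, 438, 326 and 348 CPM in Uro against 75.2, 159, 111, 118 and 86.9 CPM in HFD libraries, and the groups stood apart (log2 fold change 1.75 ± 0.22, adjusted p = 9.91e-06). Hsd17b4, the second peroxisomal bifunctional enzyme, had 279, 284, 297, 256 and 273 CPM in Uro against 99.3, 159, 128, 128 and 92.9 CPM in HFD libraries (log2 fold change 1.22 ± 0.19, adjusted p = 8.23e-05). The peroxisomal thiolase genes Acaa1a and Acaa1b rose too. Acaa1b was at 1419, 2387, 1634, 1278 and 1152 CPM in Uro, 364, 866, 537, 459.6 and 279 CPM in HFD and 428, 751, 492, 696 and 429 CPM in NFD libraries (log2 fold change 1.68 ± 0.30, adjusted p = 0.000259 for Uro against HFD). Acaa1a averaged 236 ± 50.998 CPM in Uro and 78.5 ± 40.9 CPM in HFD livers (log2 fold change 1.61 ± 0.26, adjusted p = 0.000103). These thiolase genes are near-identical copies, their counts were fractional in all 30 libraries, and the split of reads between them is uncertain. The isomerase Eci2, the reductase Decr2 and the dehydrogenase Acad11 rose by 0.82, 1.01 and 1.16 on the log2 scale (adjusted p = 0.00322, 0.000921 and 0.00122).

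Bdh1, which makes β-hydroxybutyrate from acetoacetate, was the ketone body gene among the 35. Bdh1 was at 108, 125, 132, 134 and 120.4 CPM in Uro, 39.02, 54.6, 66.8, 59.5 and 43.2 CPM in HFD and 57.3, 83.7, 49.4, 50.3 and 52.2 CPM in NFD libraries. The Uro libraries lay above all others of the study (log2 fold change 1.26 ± 0.19, adjusted p = 6.15e-05 for Uro against HFD).

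The Cyp4a genes, some of which are classical targets of PPARA in rodents, gave the largest fold change and the widest spread. Cyp4a14 was at 521, 578, 330.1, 238 and 460.3 CPM in Uro, 14.3, 168, 43.8, 44.4 and 41.2 CPM in HFD and 62.7, 329.8, 158, 394 and 76.6 CPM in NFD libraries. HFD replicate 2 stood above the other HFD libraries but below every Uro library, and the NFD values spread across the gap (log2 fold change 2.80 ± 0.65, adjusted p = 0.0051 for Uro against HFD). Cyp4a10 was at 647, 588, 647, 477 and 1087 CPM in Uro, 88.04, 588, 206, 203 and 184 CPM in HFD and 497, 917, 739, 1008 and 541 CPM in NFD libraries. HFD replicate 2 was again the high one and reached the Uro range (log2 fold change 1.47 ± 0.38, adjusted p = 0.00646). Cyp4a12a rose (log2 fold change 1.76 ± 0.35, adjusted p = 0.000866), and so did Cyp4a31, the lowest of the family, with 24.8, 21.2, 35.7, 13.1 and 16.05 CPM in Uro against 4.902, 4.63, 4.76, 9.24 and 5.25 CPM in HFD libraries (log2 fold change 1.97 ± 0.36, adjusted p = 0.000422). The 4 genes lie within 280 kb of chromosome 4 (GRCm39), beside near-identical copies. Counts were fractional in 28 of 30 libraries for Cyp4a10, in 30 for Cyp4a12a and in 18 for Cyp4a31, and the split of reads is uncertain for these; Cyp4a14 had whole counts in all 30. Aldh3a2, the fatty aldehyde dehydrogenase that completes ω-oxidation, was at 446, 359.6, 401, 454 and 403 CPM in Uro, 294, 234, 368, 304 and 205 CPM in HFD and 59.04, 109, 91.1, 103 and 51.03 CPM in NFD libraries. Uro and HFD overlapped at a single value (log2 fold change 0.58 ± 0.23, adjusted p = 0.0639), and both lay wholly above NFD.

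The gene of the receptor itself was not called with its targets. Ppara was at 6.94, 11.1, 6.27, 8.75 and 9.02 CPM in Uro, 5.98, 8.402, 6.62, 7.84 and 4.35 CPM in HFD and 13.6, 14.5, 19.7, 11.1 and 13.6 CPM in NFD libraries. Uro and HFD overlapped (log2 fold change 0.37 ± 0.22, adjusted p = 0.232), and both lay below all NFD libraries. Creb3l3, a liver transcription factor of the endoplasmic reticulum that acts with PPARA, averaged 125 ± 14.7 CPM in Uro and 80.01 ± 26.1 CPM in HFD livers (log2 fold change 0.67 ± 0.24, adjusted p = 0.0427). Of the further targets, Pdk4, a kinase that shuts off pyruvate dehydrogenase when fat is burnt, was at 4.07, 11.3, 11.6, 12.3 and 10.9 CPM in Uro against 0.784, 2.06, 4.07, 6.55 and 4.39 CPM in HFD libraries. The lowest Uro library of Pdk4 fell within the HFD range (log2 fold change 1.48 ± 0.42, adjusted p = 0.0131). Vnn1, a pantetheinase that feeds cysteamine and pantothenate metabolism, was at 96.8, 115, 86.8, 102 and 96.1 CPM in Uro against 32.1, 66.5, 55.03, 69.2 and 58.3 CPM in HFD libraries. The groups did not overlap, yet the difference missed the threshold (log2 fold change 0.85 ± 0.35, adjusted p = 0.077).

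PPARA binds, with its partner receptor, a direct repeat of AGGTCA with 1 base between the copies. The promoters of 26 of the 35 genes were in the RefSeq table used (GRCm38.p6), from 250 bases before to 50 after the start. Acaa2, Crat, Cyp4a10, Cyp4a12a, Cyp4a14, Cyp4a31, Decr1, Hsd17b4 and Vnn1 were not matched. On either strand, a stretch with at most 2 mismatches to the repeat was found in 2 of the 26, or 7.69%, against 4.403% of 27025 genes with a promoter in the table. At most 3 mismatches were found in 7 of the 26, or 26.9%, against 27.3% of all. The 2 nearest matches are printed with the matching stretch in capitals. The match of Creb3l3 is at position -209 from 1 of its 2 listed starts, within chr10:81092764-81092824 on the minus strand. The match of Etfa is at position -77, within chr9:55512284-55512344 on the minus strand, with the repeat in the opposite orientation.
Creb3l3: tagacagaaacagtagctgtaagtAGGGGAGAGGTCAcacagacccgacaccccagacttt
Etfa: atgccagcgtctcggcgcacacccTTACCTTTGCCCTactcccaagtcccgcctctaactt

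Of these genes, Creb3l3 rose and Etfa was not called in Uro against HFD. A match of letters is a description of the window and says nothing on binding.

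The limits of this comparison lie in the libraries' make-up. With the mitochondrial share added as a term, 0 of the 35 genes and 2 of all genes were called, and the calls of 4 genes ended without single libraries. Creb3l3 was not called without HFD replicate 1, 3, 4 or 5 or Uro replicate 1, 2, 3 or 5 (adjusted p up to 0.107, without HFD replicate 1). Cpt1a was not called without HFD replicate 1, 4 or 5 or Uro replicate 1, 4 or 5 (up to 0.11, without Uro replicate 5). Hadh was not called without HFD replicate 1, 4 or 5 or Uro replicate 1, 3, 4 or 5 (adjusted p up to 0.097, without HFD replicate 5), and Etfdh without HFD replicate 1 or 5 or Uro replicate 2 or 5 (up to 0.0692, without HFD replicate 5). Hepatocyte markers moved with the 35 genes in this comparison. Of 7 hepatocyte markers tested, 5 were called higher and 0 lower in Uro against HFD (median log2 fold change 0.88), and their summed level was 35183 to 50522 CPM in Uro, 11696 to 27603 CPM in HFD and 20554 to 33521 CPM in NFD libraries. Their part in the result was not tested. In bulk liver, fewer cells of a type and less RNA per cell cannot be told apart. Markers of skeletal muscle, which also burns fat, summed to at most 0.33 CPM in any library of Uro and HFD. The authors' deposited table lists 22 of the 35 genes as higher and 0 as lower in Uro against HFD, and all 22 were called higher here. Over all genes it lists 1370 as higher and 1482 as lower.

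**Figure D1:**
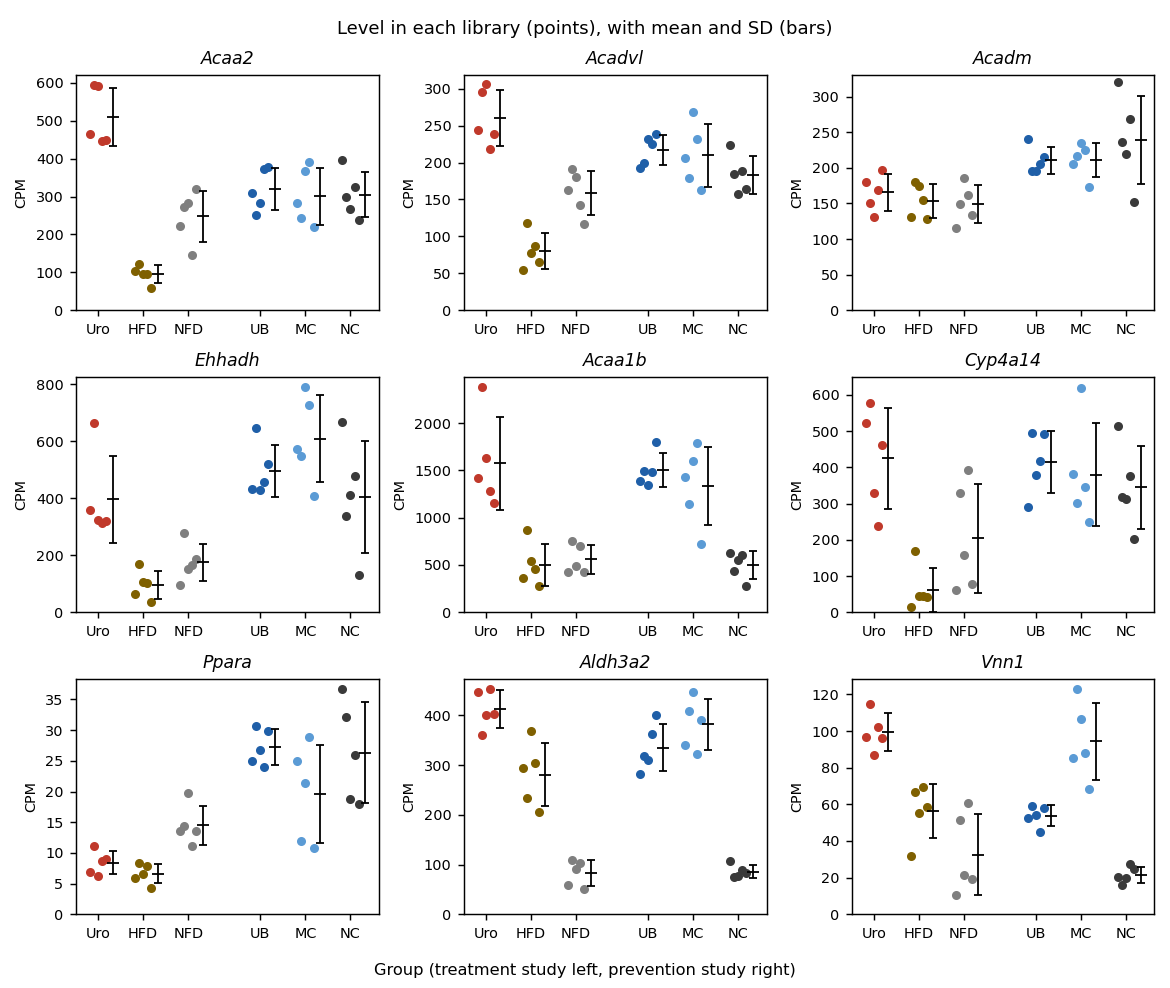
Level in CPM (vertical axes, linear, from 0) of 9 genes in each library, by group (horizontal axis), with the treatment study on the left of each panel and the prevention study on the right. Points are the 5 libraries of a group, and bars give mean and SD. For Acaa2, Acadvl and Ehhadh all Uro points lie above all HFD points, while for Acadm and Ppara they overlap; Aldh3a2 is lowest in NFD and NC livers.

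Long high-fat feeding was set against standard diet in the same study, which addresses the diet itself. In HFD livers 12 of the 35 genes fell and 1 rose, and 22 missed the threshold, while 5.96% of all genes tested were called lower and 7.19% higher. The median log2 fold change was -0.63 over the 35 genes and 0.03 over all genes tested. All 5 HFD libraries lay below all 5 NFD libraries for 7 of the 35 genes, against 3.65% of all genes tested. HFD libraries are the reference of the comparison above as well, so the same 5 libraries stand in both and the 2 sets of calls are not independent.

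The mitochondrial enzymes supplied 7 of the 12. Etfdh was at 27.3, 44.7, 32.8, 36.1 and 20.95 CPM in HFD against 69.5, 96.9, 80.3, 71.6 and 128 CPM in NFD libraries, with no overlap (log2 fold change -1.42 ± 0.22, adjusted p = 0.000349). Acaa2 (log2 fold change -1.35 ± 0.23, adjusted p = 0.000775), Hadhb (log2 fold change -0.95 ± 0.18, adjusted p = 0.00164) and Acadvl (log2 fold change -0.94 ± 0.22, adjusted p = 0.00669) also fell. Acads fell too (log2 fold change -1.14 ± 0.30, adjusted p = 0.017), although HFD replicates 1 and 3 were above NFD replicate 4. Hadha and Decr1 fell by 0.64 and 0.64 on the log2 scale (adjusted p = 0.0311 and 0.035). Ppara, the receptor gene, fell to 6.64 ± 1.598 CPM in HFD, against 14.5 ± 3.16 CPM in NFD livers, and the groups did not overlap (log2 fold change -1.09 ± 0.22, adjusted p = 0.00288).

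Of the peroxisomal and dual-location genes, Acad11 was at 28.4, 43.6, 24.7, 36.5 and 20.9 CPM in HFD against 73.5, 82.9, 86.8, 69.3 and 107 CPM in NFD libraries, again with no overlap (log2 fold change -1.40 ± 0.25, adjusted p = 0.000817). Eci2 fell (log2 fold change -0.69 ± 0.19, adjusted p = 0.0225), and the other 6 of this class had log2 fold changes of -0.84 to -0.12 that did not pass the test. Cyp4a10 fell (log2 fold change -1.51 ± 0.38, adjusted p = 0.0126) and so did Cyp4a12a (log2 fold change -1.21 ± 0.35, adjusted p = 0.0256), which was at 103, 113, 35.2, 88.7 and 51.6 CPM in HFD against 326, 234, 149, 153 and 72.2 CPM in NFD libraries. Cyp4a14 had the most negative log2 fold change of the 35, -1.68 ± 0.62, and did not pass the test (adjusted p = 0.0895). Its libraries ran over 14.3 to 168 CPM in HFD and 62.7 to 394 CPM in NFD. Aldh3a2 was the 1 gene that rose, at 281 ± 63.8 CPM in HFD and 82.5 ± 26.03 CPM in NFD livers (log2 fold change 1.81 ± 0.24, adjusted p = 4.75e-05).

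HFD replicate 2, which was high for most of the genes, weighed on this comparison: without it 20 of the 35 genes were called, 1 higher and 19 lower. Without that library the count over all genes did not move by over 1.5 times. Over all genes, 1863 were called, but 1108 without HFD replicate 5, and the count moved by over 1.5 times without HFD replicate 4 also. The calls of Hadha, Decr1, Eci2 and Cyp4a12a ended when single libraries were left out, and without the low-count filter (adjusted p = 0.0517 to 0.0773). Hadha was not called without NFD replicate 2, 3 or 5 or HFD replicate 1, 3 or 5 (adjusted p up to 0.095, without HFD replicate 5), nor Decr1 without NFD replicate 2 or 3 or HFD replicate 1, 4 or 5 (up to 0.105, without HFD replicate 5). Eci2 was not called without NFD replicate 2 or HFD replicate 3, 4 or 5 (adjusted p up to 0.0706, without HFD replicate 4), nor Cyp4a12a without NFD replicate 1 or 2 or HFD replicate 3 or 5 (up to 0.0793, without NFD replicate 1). The mitochondrial shares of HFD and NFD overlapped. With the share as a term 17 of the 35 genes were called, 1 higher and 16 lower, and 2010 of all genes. On TPM values the whole gene set shifted by 0.21 (median log2 fold change). There 2 of the 35 genes were called, 1 in each direction, and 518 of all genes. Of 7 hepatocyte markers tested, 3 were called lower and 0 higher in HFD, a part that was not tested. The authors' deposited table lists 7 of the 35 genes as lower and 1 as higher in HFD against NFD, and all 8 were called the same way here. Over all genes it lists 475 as lower and 799 as higher.

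Uro livers were also set against NFD livers, the reference on standard diet. Of the 35 genes, 18 were higher in Uro, 3 were lower and 14 did not pass the test, while 16.1% of all genes tested were called higher and 12.3% lower. The median log2 fold change was 0.69 over the 35 genes and 0.03 over all genes tested. This comparison shares the Uro libraries with the one against HFD. Summed hepatocyte markers were at 35183 to 50522 CPM in Uro and 20554 to 33521 CPM in NFD libraries, a part that was not tested. Log2 fold changes of Acaa2 were 1.10 against NFD and 2.45 against HFD, and those of Ech1 1.11 and 1.75. Aldh3a2 (log2 fold change 2.39 ± 0.24, adjusted p = 7.7e-07), Bdh1 (log2 fold change 1.15 ± 0.19, adjusted p = 0.000148) and Cpt1a (log2 fold change 1.03 ± 0.19, adjusted p = 0.000405) had the smallest adjusted p. Hadhb, Acads, Eci2 and Cyp4a10 did not pass the test, and their Uro and NFD values overlapped. Ppara (log2 fold change -0.72 ± 0.22, adjusted p = 0.0167), Acsl1 (log2 fold change -0.82 ± 0.28, adjusted p = 0.0341) and Etfdh (log2 fold change -0.73 ± 0.22, adjusted p = 0.0162) were lower in Uro than in NFD. On TPM values, whose median over all genes shifted by 1.16, the signs of these 3 turned (log2 fold changes of 1.99, 0.64 and 0.61). By limma's test on these values Ppara was called higher (adjusted p = 2.6e-05), while Acsl1 (0.136) and Etfdh (0.0706) were not called. With the mitochondrial share added as a term 0 of the 35 were called.

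Leaving out single libraries ended 4 of these calls. Etfb was not called without NFD replicate 4 or 5 or Uro replicate 2 or 3 (adjusted p up to 0.0799, without Uro replicate 3), and Acsl1 without NFD replicate 2 or 4 or Uro replicate 2, 3 or 4 (up to 0.126, without NFD replicate 4). Ppara was not called without NFD replicate 3 (0.0642) or Uro replicate 3 (0.0564), and Etfdh without Uro replicate 3 (0.0561; all adjusted p). The authors' deposited table lists 9 of the 35 genes as higher and 0 as lower in Uro against NFD (1392 and 1506 over all genes). Of these 9, 8 were called higher here, and Cyp4a14 was not (adjusted p = 0.191).

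**Figure D2:**
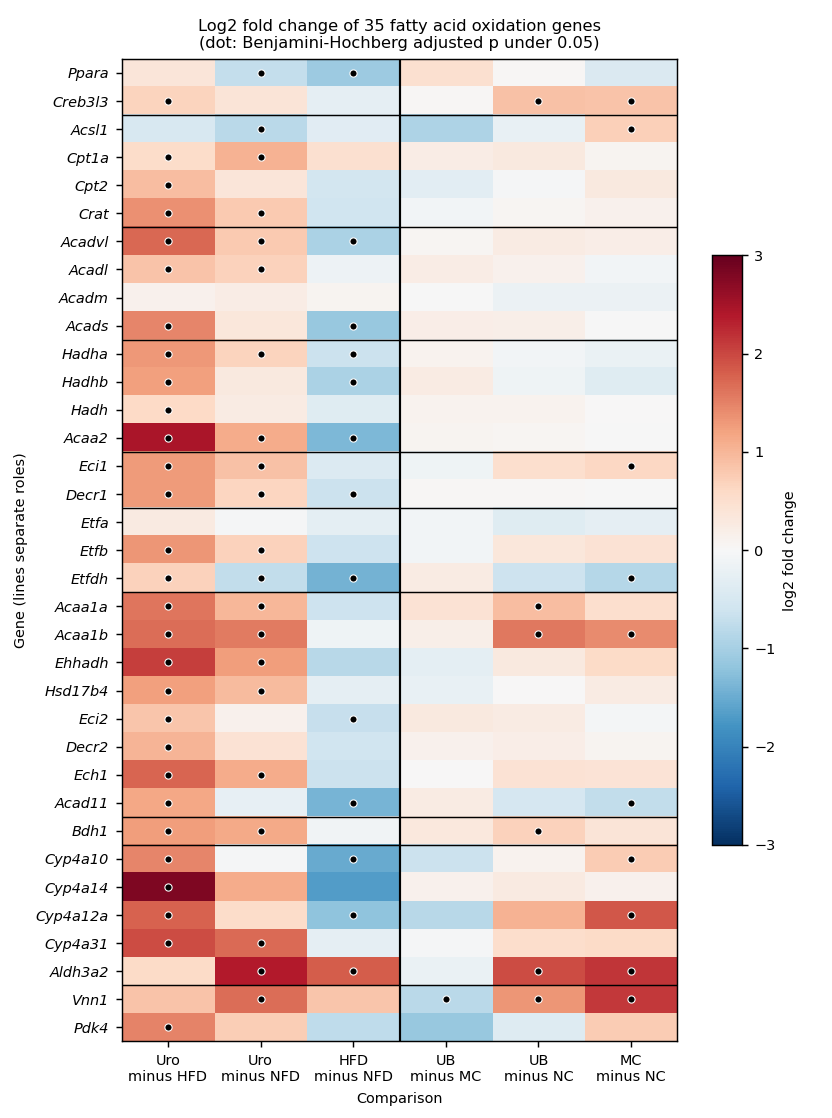
Log2 fold change (colour, red for higher and blue for lower in the group named before minus) of the 35 genes (rows, lines between roles) in 6 comparisons (columns, treatment study left of the thick line). Dots mark an adjusted p under 0.05 in edgeR's quasi-likelihood test; the column of Uro minus HFD holds 29 dots, that of UB minus MC 1.

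In the prevention study, 10 weeks of high-fat diet without UB-NPs was compared with standard diet. In MC against NC livers 8 of the 35 genes rose and 2 fell, and 25 missed the threshold, while 6.65% of all genes tested were called higher and 5.53% lower. The median log2 fold change was 0.19 over the 35 genes and 0.03 over all genes tested. The count over all genes, 1645, was 923 to 2315 when single libraries were left out; it moved by over 1.5 times without NC replicate 2 or MC replicate 3. All 5 MC libraries lay above all 5 NC libraries for 5 of the 35 genes, against 4.31% of all genes tested.

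Of the 8 genes that rose, 3 belong to ω-oxidation. Aldh3a2 was at 341, 409, 447, 322 and 391 CPM in MC against 107, 75.3, 76.2, 88.5 and 82.95 CPM in NC libraries, far apart (log2 fold change 2.15 ± 0.17, adjusted p = 8.96e-08). Vnn1 was at 85.4, 123, 106, 88.1 and 68.5 CPM in MC against 20.1, 16.002, 19.7, 27.2 and 24.4 CPM in NC libraries, also without overlap (log2 fold change 2.13 ± 0.18, adjusted p = 1.84e-07). Acaa1b was at 1426, 1149, 1595, 1788 and 722 CPM in MC against 628, 437, 553, 607 and 274 CPM in NC libraries (log2 fold change 1.42 ± 0.25, adjusted p = 0.000932). The lowest MC library of Acaa1b, replicate 5, was still above every NC library. Cyp4a12a was at 106, 276, 319, 132 and 126 CPM in MC against 47.6, 26.1, 56.7, 55.6 and 76.6 CPM in NC libraries (log2 fold change 1.87 ± 0.35, adjusted p = 0.00385), and Creb3l3 averaged 91.9 ± 12.4 CPM in MC and 50.9 ± 9.85 CPM in NC livers (log2 fold change 0.85 ± 0.17, adjusted p = 0.00343). Eci1, Cyp4a10 and Acsl1 also rose (0.63, 0.77 and 0.71; adjusted p = 0.0332, 0.0339 and 0.0465).

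Etfdh fell (log2 fold change -0.86 ± 0.23, adjusted p = 0.0184), with 132, 87.5, 117, 151 and 73.4 CPM in MC and 286, 234, 179, 219 and 98.5 CPM in NC libraries, overlapping through NC replicate 5. Acad11 fell as well (log2 fold change -0.74 ± 0.23, adjusted p = 0.0358). None of the 4 acyl-CoA dehydrogenases and none of Hadha, Hadhb, Hadh and Acaa2 was called, with log2 fold changes of -0.37 to 0.19. The calls of 5 genes ended without single libraries. Acsl1 was not called without any 1 of the 5 NC libraries or MC replicate 1, 2 or 3 (adjusted p up to 0.178, without MC replicate 2), and Eci1 without NC replicate 2 or 3 or MC replicate 2, 3 or 4 (up to 0.105, without MC replicate 3). Cyp4a10 was not called without NC replicate 2 or 4 or MC replicate 1, 2 or 3 (adjusted p up to 0.101, without MC replicate 3). Etfdh was not called without NC replicate 1 or 2 or MC replicate 2 (up to 0.0604, without NC replicate 1), and Acad11 without NC replicate 1 to 4 or MC replicate 2 or 5 (up to 0.114, without NC replicate 1). Without NC replicate 2 or without MC replicate 2, 5 of the 35 were called. With the mitochondrial share added as a term, Aldh3a2 and Vnn1 alone were called. Summed hepatocyte markers were at 22626 to 41844 CPM in MC (median 25131) and 22379 to 38943 CPM in NC libraries (median 27998). Their part was not tested. The authors' deposited table lists Acaa1b, Aldh3a2, Cyp4a12a and Vnn1 as higher and 0 of the 35 as lower in MC against NC. Over all genes it lists 449 as higher and 402 as lower.

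UB-NPs given from the start of the diet were compared with water. In UB against MC livers 0 of the 35 genes rose and 1 fell, and 34 did not pass the test, while 0.207% of all genes tested were called higher and 0.400% lower. The median log2 fold change was 0.03 over the 35 genes and 0.00 over all genes tested, and 6 of the 35 had an unadjusted p under 0.05, as did 10.7% of all genes. The gene that fell was Vnn1, at 52.5, 59.1, 54.05, 44.7 and 58.2 CPM in UB against 85.4, 123, 106, 88.1 and 68.5 CPM in MC libraries. The groups did not overlap (log2 fold change -0.81 ± 0.17, adjusted p = 0.0286). Vnn1 lost its call when MC replicate 2 or 3, or any of UB replicates 1 to 4, was left out (adjusted p up to 0.125, without MC replicate 2). The call also ended in 1 fit of all 30 libraries (adjusted p = 0.234) and on TPM values (0.449), whose median over all genes shifted by 0.37. Acsl1 came next, at 308, 354, 186, 259 and 309 CPM in UB against 624, 867, 487, 346 and 374 CPM in MC libraries, with MC spread widely (log2 fold change -0.93 ± 0.23, adjusted p = 0.0672). Over all genes, 82 were called, and 20 to 100 when single libraries were left out; the count moved by over 1.5 times without MC replicate 2 or 3 or any of UB replicates 1 to 4. Of the 35, a second gene was called without the low-count filter and by DESeq2. Of the mitochondrial genes of the spiral, Acadvl averaged 217 ± 20.4 CPM in UB and 209.7 ± 42.3 CPM in MC livers, and Acaa2 319 ± 55.4 CPM in UB and 301 ± 75.6 CPM in MC livers. The authors' deposited table lists 1 of the 35, Pdk4, as lower in UB against MC, and over all genes 54 as higher and 74 as lower. Pdk4 averaged 6.001 ± 2.29 CPM in UB and 13.2 ± 5.07 CPM in MC livers and did not pass the test here (log2 fold change -1.13 ± 0.43, adjusted p = 0.33).

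UB livers were also set against NC livers on standard diet. There 6 of the 35 genes rose and 0 fell, and 29 missed the threshold, while 4.47% of all genes tested were called higher and 3.33% lower. The count over all genes, 1053, was 550 to 1589 when single libraries were left out; it moved by over 1.5 times without NC replicate 1, 2, 3 or 5 or UB replicate 3, 4 or 5. The median log2 fold change was 0.18 over the 35 genes and 0.01 over all genes tested. The 6 were Aldh3a2 (log2 fold change 1.96 ± 0.17, adjusted p = 5.24e-07), Vnn1 (log2 fold change 1.32 ± 0.18, adjusted p = 9.24e-05), Acaa1b (log2 fold change 1.58 ± 0.25, adjusted p = 0.000396), Creb3l3 (log2 fold change 0.88 ± 0.17, adjusted p = 0.00342), Acaa1a (log2 fold change 0.93 ± 0.19, adjusted p = 0.00359) and Bdh1 (log2 fold change 0.69 ± 0.19, adjusted p = 0.0231). The comparison shares the NC libraries with that of MC. Summed hepatocyte markers were at 17422 to 29097 CPM in UB (median 19747) and 22379 to 38943 CPM in NC libraries (median 27998). Their part was not tested. Bdh1 was at 155, 137, 135, 155 and 171 CPM in UB, 118, 98.2, 151, 162 and 79.7 CPM in MC and 90.99, 76.1, 92.8, 119.8 and 84.9 CPM in NC libraries. Its call ended without NC replicate 2 or 3 or UB replicate 4 or 5 (adjusted p up to 0.0749, without NC replicate 2). The mitochondrial shares of UB and NC libraries do not meet (41.8% to 51.98% and 61.5% to 73.4%). The groups and the share cannot be told apart in this comparison. With the share added as a term, 1 of the 35 was called, Aldh3a2. On TPM values, whose median over all genes shifted by 0.78, 32 were. The authors' deposited table lists Acaa1b, Aldh3a2, Cyp4a12a and Vnn1 as higher in UB against NC, and Cyp4a12a was not called here (adjusted p = 0.0804). Over all genes it lists 397 as higher and 281 as lower.

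Whether UB-NPs acted differently on these genes in the 2 studies was tested directly, as the difference of Uro minus HFD from UB minus MC in 1 fit of all 30 libraries. For 23 of the 35 genes the effect was higher in the treatment study, for 0 it was lower, and 12 did not pass the test. Of all 14784 genes tested, 8.54% were called higher and 3.75% lower. The median difference was 1.199 on the log2 scale over the 35 genes and -0.08 over all genes tested. The smallest adjusted p belonged to Acaa2 (difference 2.34 ± 0.31, adjusted p = 8.63e-06), Acadvl (1.64 ± 0.27, 8.39e-05) and Ech1 (1.71 ± 0.28, 9.75e-05). The studies differ in length of feeding, in when treatment began and in the mitochondrial share, which was lower in Uro than in HFD but overlapped between UB and MC. With the share as a term 0 of the 35 and 0 of all genes were called. Of 7 hepatocyte markers tested, 4 were called higher and 0 lower in the same test (median difference 1.22), and their part in the result was not tested.

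**Figure D3:**
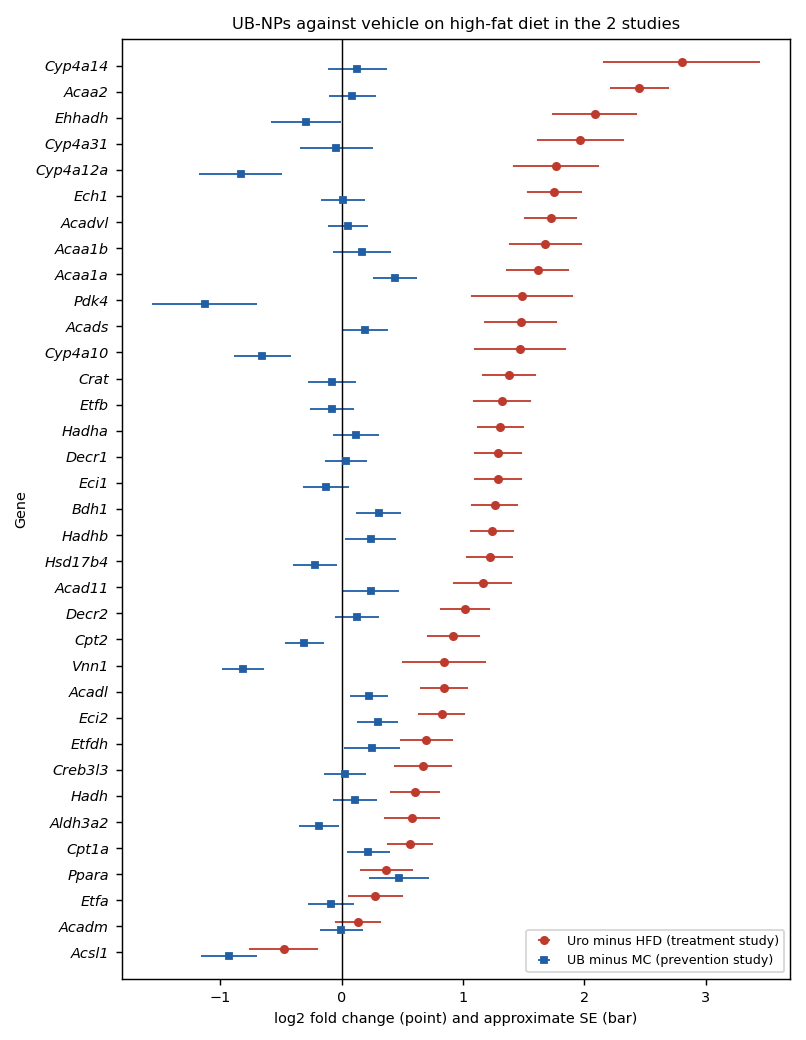
Log2 fold change with its approximate SE (horizontal axis) of the 35 genes (vertical axis, ordered by the effect in the treatment study) for UB-NPs against water on high-fat diet. Red circles (Uro minus HFD) lie right of 0 for all but Acsl1, while blue squares (UB minus MC) lie on both sides of 0.

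The effect of the diet also differed between the studies, tested as HFD minus NFD against MC minus NC. For 12 of the 35 genes it was lower in the treatment study, for 0 higher, while 3.42% of all genes tested were called lower and 2.00% higher. The median difference was -0.88 over the 35 genes and -0.08 over all genes tested. Cyp4a12a (difference -3.13 ± 0.54, adjusted p = 0.0021) and Cyp4a10 (-2.31 ± 0.46, 0.00449) had the smallest adjusted p. Each rose in MC against NC and fell in HFD against NFD. In 1 fit of all 30 libraries the rise of Cyp4a10 was not called (adjusted p = 0.1245). On standard diet, Cyp4a12a was at 26.1 to 76.6 CPM in NC and 72.2 to 326 CPM in NFD libraries. Cyp4a10 was at 386 to 558 CPM in NC and 497 to 1008 CPM in NFD libraries. Study, length of feeding and any library batch, which the labels do not give, cannot be told apart here. Aldh3a2 rose on the high-fat diet in each study (2.15 in MC against NC and 1.81 in HFD against NFD), and the difference between these did not pass the test (-0.38 ± 0.27, adjusted p = 0.453). With the share as a term 3 of the 35 were called, Acaa2, Cyp4a10 and Cyp4a12a. Of 7 hepatocyte markers tested, 0 were called higher and 2 lower (median difference -0.23), a part that was not tested. The count over all genes, 801, was 495 to 1383 when single libraries were left out; it moved by over 1.5 times without MC replicate 3, 4 or 5, NFD replicate 2 or 5 or HFD replicate 2, 4 or 5. For the high-fat groups on water, the authors' deposited table lists 22 of the 35 genes as lower and 0 as higher in HFD against MC, a comparison that crosses the studies. Over all genes it lists 823 as lower and 1028 as higher.

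Per library, the 35 genes were summarised by the median of their log2 levels relative to each gene's mean over the 30 libraries. The median ran over 0.21 to 0.45 in Uro, -1.29 to -0.53 in HFD and -0.57 to -0.11 in NFD libraries. It ran over 0.15 to 0.33 in UB, -0.25 to 0.47 in MC and -0.40 to 0.41 in NC libraries. Uro libraries had the lowest mitochondrial shares and, like the UB libraries, were all above 0. HFD and NFD libraries were all below 0, and MC and NC libraries lay on both sides of 0. How this level relates to the share was not tested.

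**Figure D4:**
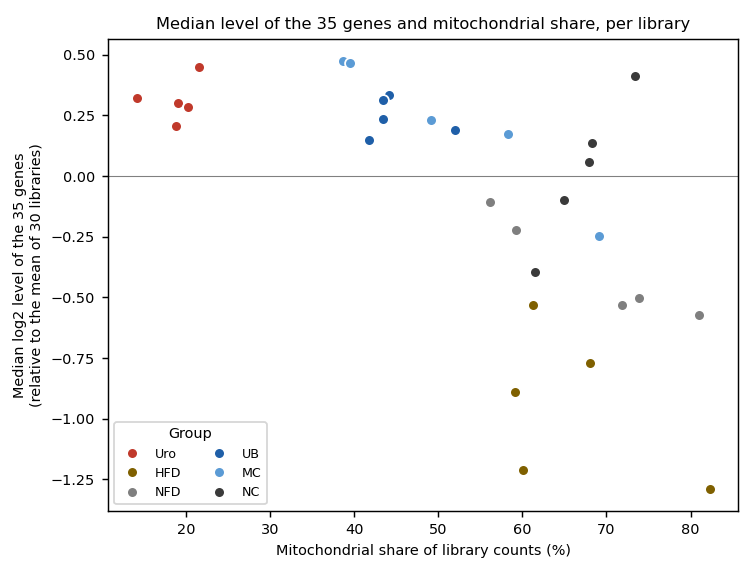
Median log2 level of the 35 genes relative to their mean over 30 libraries (vertical axis) against the percent of counts from mitochondrial transcripts (horizontal axis), 1 point per library. The Uro points stand alone at 14.1% to 21.6%. The HFD, NFD and NC points and MC replicates 2 (58.2%) and 5 (69.1%) share the range from 56.2% up but differ in height.

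The wider pathway around the 35 genes was read from lists that do not share genes with them. Beside the counts that follow for Uro against HFD stand 15.3% of all genes tested called higher and 11.7% lower. Among genes of fatty acid activation and transport, 8 of 17 tested were higher and 0 lower in Uro against HFD (median 0.57), led by Dbi, the acyl-CoA binding protein (2.02 ± 0.21, adjusted p = 1.67e-06), and Mlycd, which removes malonyl-CoA, the inhibitor of carnitine transfer (1.71 ± 0.24, adjusted p = 2.87e-05). Among other mitochondrial acyl-CoA enzymes, 8 of 18 tested were higher and 0 lower (median 0.39), among them Echs1, the short-chain hydratase (1.11 ± 0.22, adjusted p = 0.000646). Among other peroxisomal genes, 9 of 14 tested were higher and 0 lower (median 0.74), led by Pecr, a reductase (1.65 ± 0.24, adjusted p = 4.02e-05), and Abcd3, a transporter of the peroxisomal membrane (1.23 ± 0.20, adjusted p = 9.18e-05). Among ketone body enzymes and carriers, 4 of 9 tested were higher and 1 lower (median 0.13), and the lower one was the carrier Slc16a6 (-1.71 ± 0.46, adjusted p = 0.00826).

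Among other Cyp4 and ω-oxidation genes, 3 of 12 tested were higher and 1 lower in Uro against HFD (median 0.25), with Cyp4f14 among the higher (1.01 ± 0.18, adjusted p = 0.000328). Among other PPARA targets, 9 of 19 tested were higher and 0 lower (median 0.79), among them Plin2, the coat protein of lipid droplets (1.97 ± 0.27, adjusted p = 2.25e-05). Among partners and co-regulators of PPARA, 0 of 20 tested were higher and 3 lower (median -0.27). The lower ones were the co-repressor Ncor1 (-0.67 ± 0.17, adjusted p = 0.00682), the coactivator Ppargc1a (-1.15 ± 0.34, adjusted p = 0.0152) and Nrip1, a co-regulator of nuclear receptors (-0.73 ± 0.22, adjusted p = 0.0176). These 3 of 20 are near the 11.7% of all genes called lower. The median over all genes tested was -0.08 in this comparison.

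In HFD against NFD, where 7.19% of all genes tested were called higher and 5.96% lower, among genes of fatty acid activation and transport 0 of 17 tested were higher and 1 lower; the lower was Slc25a20, the carnitine and acylcarnitine carrier (-0.90 ± 0.16, adjusted p = 0.00121). Among other mitochondrial enzymes 1 of 18 tested were higher and 6 lower, and among other peroxisomal genes 0 of 14 tested were higher and 4 lower, with Hacl1, a lyase of branched chains, at the smallest adjusted p (-2.98 ± 0.27, adjusted p = 8.77e-07). Among ketone body genes 2 of 9 tested were higher and 4 lower, among other Cyp4 and ω-oxidation genes 1 of 12 tested were higher and 3 lower, among PPARA partners 1 of 20 tested were higher and 0 lower, and among other PPARA targets 1 of 19 tested were higher and 3 lower. Counts of 1 gene in lists of 12 to 20 are near the share over all genes. The higher of the partners was Pparg (1.15 ± 0.27, adjusted p = 0.00746), and the higher of the targets Cd36, a fatty acid uptake receptor (2.37 ± 0.25, adjusted p = 3.74e-06).

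In MC against NC, where 6.65% of all genes tested were called higher and 5.53% lower, among genes of activation and transport 6 of 16 tested were higher and 0 lower, among other mitochondrial enzymes 2 of 18 tested were higher and 0 lower, and among other peroxisomal genes 1 of 14 tested were higher and 2 lower. Among ketone body genes 1 of 9 tested were higher and 0 lower, among other Cyp4 and ω-oxidation genes 4 of 12 tested were higher and 1 lower, among PPARA partners 1 of 20 tested were higher and 1 lower, and among other PPARA targets 5 of 19 tested were higher and 1 lower. Here too, counts of 1 gene in lists of 12 to 20 are near that share. Cd36 rose here too (2.39 ± 0.22, adjusted p = 4.26e-07), as did Pex11a, a factor of peroxisome division (1.07 ± 0.18, adjusted p = 0.000665). In UB against MC, 0.207% of all genes tested were called higher and 0.400% lower. Over all these lists 1 gene was called, which is near the share over all genes. It was Acot3, an acyl-CoA thioesterase that was higher in UB (2.24 ± 0.37, adjusted p = 0.011).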

How the data were processed

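The series holds poly(A)-selected, stranded RNA libraries of mouse liver with paired-end reads, per the labels' protocols. The tools named in the submitters' processing notes are StringTie, HISAT2, DESeq2 and fastp, with build GRCm39; their versions and settings are not given in the sources used here. The authors deposited expected counts per gene and library without scaling; they were rounded to whole numbers before the tests. The authors' deposited TPM values were used in an alternative only, as log2(TPM + 1) with limma and a minimum mean TPM of 1. The authors' deposited table of calls gives directions without thresholds. How reads shared by near-identical or overlapping genes were counted is not given in the sources used here. Among others, counts were fractional in 29 of 30 libraries for Acadvl, 17 for Eci2, 15 for Acsl1 and 15 for Acad11.

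The 35 genes and all lists were chosen with earlier results of these data known. Samples were grouped by their labels. Each study of 15 libraries was fitted with edgeR 4.0.16 in R 4.3.3 (filterByExpr, TMM, robust quasi-likelihood, two-sided F-test, 13498 and 14163 genes tested), and differences between the studies in 1 fit of 30 libraries (14784 genes). P-values were adjusted by Benjamini-Hochberg and called under 0.05. The SE was taken as the absolute log2 fold change over the root of F. CPM for display were scaled over all 30 libraries. The mitochondrial share sums 37 mitochondrial genes and 30 nuclear copies found with BLAST 2.17.0 (at least 80% identity over at least 50% of length). No 2 of the 60 pairs of libraries within groups were identical. The code was tested on simulated data. All 35 genes may be named; full statistics go to at most the 10 called genes of smallest adjusted p per comparison and to genes of the same role set beside them, and at most 3 genes per related list are named. Alternatives were DESeq2 1.42.0 and its size factors, no filter, a replicate block, the share as a covariate, no mitochondrial genes, no library of highest share, TPM, 1 joint fit, each library left out and, added after seeing the data, counts thinned to 3.14 M per library. Counts of 17 to 24.3 M per library left 3.14 to 19.7 M outside the mitochondrial share. GENCODE M39 gave coordinates and RefSeq tables of GRCm38.p6 promoters. No correction was made for library batches, which the labels do not give.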

Additional observations from a re-analysis of the deposited data

Results flagged for a closer look

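In 11 of 210 sets of 5 libraries (a gene in a group), 1 library stood apart from the other 4 by Dixon's test, and chance alone flags about 1 in 20. HFD replicate 2 was high for 4 genes: Creb3l3 (125 CPM against 58.4 to 77.4 CPM in the other HFD libraries), Acaa1a (152 CPM against 57.7 to 64.4 CPM), Cyp4a10 (588 CPM against 88.04 to 206 CPM) and Cyp4a14 (168 CPM against 14.3 to 44.4 CPM). Uro replicate 2 was high for Acaa1a (326 CPM against 199.8 to 219 CPM in the other Uro libraries) and Ehhadh (666 CPM against 315 to 359.7 CPM). Cyp4a10 was high in Uro replicate 5 (1087 CPM against 477 to 647 CPM) and Cyp4a12a in Uro replicate 1 (381 CPM against 210.3 to 254 CPM), while Pdk4 was low in Uro replicate 1 (4.07 CPM against 10.9 to 12.3 CPM). Bdh1 was high in NFD replicate 2 (83.7 CPM against 49.4 to 57.3 CPM in the other NFD libraries), and Cyp4a31 in HFD replicate 4 (9.24 CPM against 4.63 to 5.25 CPM).

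The effect of UB-NPs differed between the studies for 23 genes by edgeR's test of the difference, Uro minus HFD less UB minus MC (adjusted p = 8.63e-06 to 0.0317). The differences on the log2 scale were Cyp4a14 2.64, Pdk4 2.59, Cyp4a12a 2.57, Ehhadh 2.35, Acaa2 2.34, Cyp4a10 2.10, Cyp4a31 1.99, Ech1 1.71, Acadvl 1.64, Vnn1 1.63, Acaa1b 1.48, Crat 1.43, Hsd17b4 1.42, Eci1 1.39, Etfb 1.37, Acads 1.25, Decr1 1.23, Cpt2 1.199, Hadha 1.17, Acaa1a 1.15, Hadhb 0.97, Bdh1 0.93 and Decr2 0.86. Without MC replicate 4, Acads (adjusted p = 0.0511), Hadhb (0.0507) and Decr2 (0.0744) were not called; Decr2 was not called either without MC replicate 3, UB replicate 3 or 5, HFD replicate 1 or 5 or Uro replicate 5.

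The effect of the diet differed for 12 genes by edgeR's test of HFD minus NFD less MC minus NC (adjusted p = 0.0021 to 0.0454). The differences on the log2 scale were Cyp4a12a -3.13, Cyp4a10 -2.31, Acaa1b -1.58, Acaa2 -1.37, Vnn1 -1.35, Acadvl -1.17, Creb3l3 -1.17, Acaa1a -1.16, Ech1 -1.11, Etfb -1.09, Eci1 -1.08 and Cpt2 -0.89. Without MC replicate 4, Etfb (adjusted p = 0.0508), Acaa1a (0.0696), Vnn1 (0.061) and Cpt2 (0.0789) were not called. Etfb was not called either without MC replicate 3 or NFD replicate 1, nor Acaa1a without NC replicate 2, NFD replicate 1 or 2 or HFD replicate 1, 3, 4 or 5. Cpt2 was not called without any 1 of 14 libraries and Vnn1 without any 1 of 11, with adjusted p up to 0.1 for Cpt2 and 0.0941 for Vnn1, both without NFD replicate 2.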

How the results depend on the processing

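Over 115 called results of single genes, 2302 of 2580 alternatives kept direction and call, 260 lost the call and 18 reversed. With the mitochondrial share added as a covariate, the genes called of the 35 were 2 in MC against NC, 1 in UB against NC, 0 in Uro against HFD, 0 in Uro against NFD, 0 for the difference of UB-NP effects and 3 for that of diet effects. Of all genes, 389 (1645 without the covariate), 71 (1053), 2 (3836), 0 (4027), 0 (1818) and 186 (801) were called in the same order. Log2 fold changes reversed under it for Uro against HFD in Etfb (-0.069), Pdk4 (-0.26), Acadl (-0.37), Cpt2 (-0.31), Cyp4a31 (-0.18), Creb3l3 (-0.27) and Cyp4a10 (-0.37). They reversed for Uro against NFD in Etfb (-0.75), Acadvl (-0.51), Eci1 (-0.31), Acadl (-0.59), Cyp4a31 (-0.37) and Ech1 (-0.23), and for the difference of UB-NP effects in Bdh1 (-0.039). The share separates Uro from HFD and NFD completely, and UB from NC, so this fit has little to set these groups apart with.

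On TPM values 0 genes were called in UB against MC, 32 in UB against NC, 2 in HFD against NFD and 33 in Uro against NFD; of all genes 6134, 518, 6488 and 7732 were called in UB against NC, HFD against NFD, Uro against HFD and Uro against NFD. TPM divide by a total that holds the mitochondrial transcripts, and the median over all genes shifted by 0.21 to 1.16. Reversed on TPM values were Acadvl in HFD against NFD (0.019) and, in Uro against NFD, Acsl1 (0.64), Ppara (1.99) and Etfdh (0.61). Of these only Ppara was called on TPM values, as higher (adjusted p = 2.6e-05 by limma's test). In 1 fit of all 30 libraries, 0 genes were called in UB against MC and 20 in HFD against NFD. In UB against MC, 2 were called without the low-count filter and 2 by DESeq2 (129 and 234 of all genes, against 82). Without the library of highest share per group, 1227 of all genes differed in diet effect. The cause of these moves was not tested.

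Leaving out 1 library at a time, 5 to 12 of the 35 were called in MC against NC, 0 to 2 in UB against MC, 9 to 20 in HFD against NFD and 25 to 29 in Uro against HFD. Of all genes, 20 to 100 were then called in UB against MC, 550 to 1589 in UB against NC, 923 to 2315 in MC against NC, 1108 to 2341 in HFD against NFD and 495 to 1383 for the difference of diet effects. The range over all genes was 3023 to 3661 in Uro against HFD. Over all genes past the low-count filter, replicate numbers showed little pairing. In 30 pairs of same-numbered libraries r was -0.198 to 0.157, over 0.1 in 3, and 8 libraries correlated best with their own number. Of the 35 genes, replicate 2 held the highest level of 14 in NFD, 25 in HFD and 14 in Uro, but of 2 in NC. Replicate 5 held the lowest level of 25 in NC and 28 in MC, but of 4 in UB. Pairing over the 35 genes alone was not tested. With a replicate block, 28 of the 35 were called in Uro against HFD, 16 in HFD against NFD, 9 in MC against NC and 1 in UB against MC. Of all genes, 3366, 1411, 1907 and 96 were called in the same order. The block ended the calls of Cpt1a and Hadh in Uro against HFD, Hadha and Decr1 in HFD against NFD, Acsl1 in MC against NC and in Uro against NFD. Without the library of highest share per group, calls ended for Hadha and Decr1 in HFD against NFD, Etfdh and Acad11 in MC against NC, Creb3l3 in Uro against HFD and Etfb and Acsl1 in Uro against NFD. Without the low-count filter they also ended for Ppara in Uro against NFD and for Cpt2 and Vnn1 in the difference of diet effects. Median depth outside the mitochondrial share was lowest in NFD (4.97 M) and NC (5.85 M), and the shallowest library was of HFD (3.14 M). With counts thinned to that library, chosen after seeing the data, 26 of the 35 genes were called in Uro against HFD, without Cpt1a, Hadh and Creb3l3. Calls of difference ended for Decr2 (UB-NP effects) and Cpt2 (diet effects). Of all genes, 3457 were called in Uro against HFD with the thinned counts.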
